A study of Mus musculus with 6 samples.

Results

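The 10 genes described here mark subfields of the hippocampus, 6 of them the dentate gyrus (Prox1, Dsp, C1ql2, Lct, Tdo2 and Trpc6) and 4 the CA fields (Wfs1, Fibcd1, Spink8 and Iyd). They were found by matching these symbols to Ensembl mouse gene identifiers, and all 10 were among the 78298 identifiers measured. The RNA was polyadenylated RNA of 1 brain side, the left, and was sequenced from 3 Top2b-low and 3 wild-type male mice, to ask how lowered expression of Top2b, the gene of DNA topoisomerase IIβ, affects the adult brain. In Top2b-low mice both Top2b alleles carry, by CRISPR/Cas9 editing, an auxin-inducible degron tag at the 5′ end of the coding sequence, and the labels name no Cre or transgene promoter. No auxin or other compound was given to either group. The mice were 10 weeks old by the labels' protocols and 3.5 months old by the series text. The name of Top2b-low replicate 3 ends in dNdN, which the labels do not explain, and those of replicates 1 and 2 end in Homo.

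The hippocampus passes signals from the entorhinal cortex to the granule cells of the dentate gyrus, from these through mossy fibres to CA3 pyramidal cells, and on to CA1 pyramidal cells. Each of these cell classes uses its own set of genes, by which a subfield can be recognised even in RNA from a much larger piece of tissue. In such bulk RNA, fewer cells of a type and less RNA per cell cannot be told apart. Several of the genes are also used elsewhere, Prox1 in the thalamus and in some interneurons, and Wfs1 in the cortex and the striatum.

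The library names divide the samples in another way. Replicate 3 of each genotype has a name that begins with N22, and these 2 libraries are called the N22 libraries here. They held 35246703 (Top2b-low) and 28629911 (wild type) reads, against 16963067 to 17413959 reads in the other 4 libraries. All 7 cerebellar granule cell markers examined fell in the N22 libraries, their summed level being 2153 and 2785 normalised counts there and 19227 to 24337 in the other 4 libraries. Of 6 hindbrain genes, the 4 Hox genes (Hoxb3, Hoxb5, Hoxc4 and Hoxd3) were at 0 in both N22 libraries and above 0 in the other 4. Top2b itself averaged 2144 ± 175 normalised counts in Top2b-low mice and 2886 ± 355 in wild-type mice (SD, n = 3 each), and the groups did not overlap (limma log2 fold change -0.42, unadjusted p = 0.00629, adjusted p = 0.99997). With an N22 term its adjusted p was 0.224 by limma and 4.88e-05 by DESeq2, and with the replicate block 0.395 by limma.

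All 10 genes were detected in every library, and all 10 passed the filter for testing, a mean of at least 10 normalised counts over the 6 libraries. A normalised count is the number of reads of a gene divided by a factor for the depth of its library. Levels were compared between genes only per kb of annotated exon. On that scale the CA gene Wfs1 was the highest, with a mean of 484 normalised counts per kb and a range of 411 to 556 over the libraries. Prox1, Fibcd1 and C1ql2 followed with means of 102, 101 and 97.1 normalised counts per kb, and their ranges over the libraries overlapped. The CA gene Spink8 had a mean of 45.1 normalised counts per kb (range 22.4 to 69.5) and the dentate gene Trpc6 33.0 (26.2 to 42.9), again overlapping. The lowest 4 were Lct at 14.8, Dsp at 13.8, Tdo2 at 9.93 and Iyd at 9.25 normalised counts per kb, and within this set the neighbours in the order overlapped too. Iyd had the fewest reads, 5 to 33 per library, so its values carried the most counting error.

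None of the 10 genes differed between the genotypes beyond the spread of the replicates. The groups overlapped for each gene, where 5.74% of the 17391 genes tested had groups that did not overlap (2.70% higher and 3.04% lower in Top2b-low mice). In limma's test 0 of the 10 genes passed an adjusted p of 0.05, against a background of 0% of all genes. The adjusted p was 0.99997 for each gene, and 0 of the 10 had an unadjusted p under 0.05, where 262 of the 17391 genes did. With an N22 term in limma's model 0 of the 10 and 1011 of the 17391 genes had an unadjusted p under 0.05. None of the 10 passed there either. By edgeR and DESeq2, 0 of the 10 passed as well, with 0 at an unadjusted p under 0.05. DESeq2 with an N22 term called 0.0805% of all genes and 0 of the 10. With the replicate block it called 0.0998% of the 15030 genes to which it gave an adjusted p, and 0 of the 9 among the 10, since Iyd had none. The median log2 fold change was 0.0063 over the 6 dentate genes and -0.02 over the 4 CA genes, and -0.0021 over all genes tested.

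**Figure D1:**
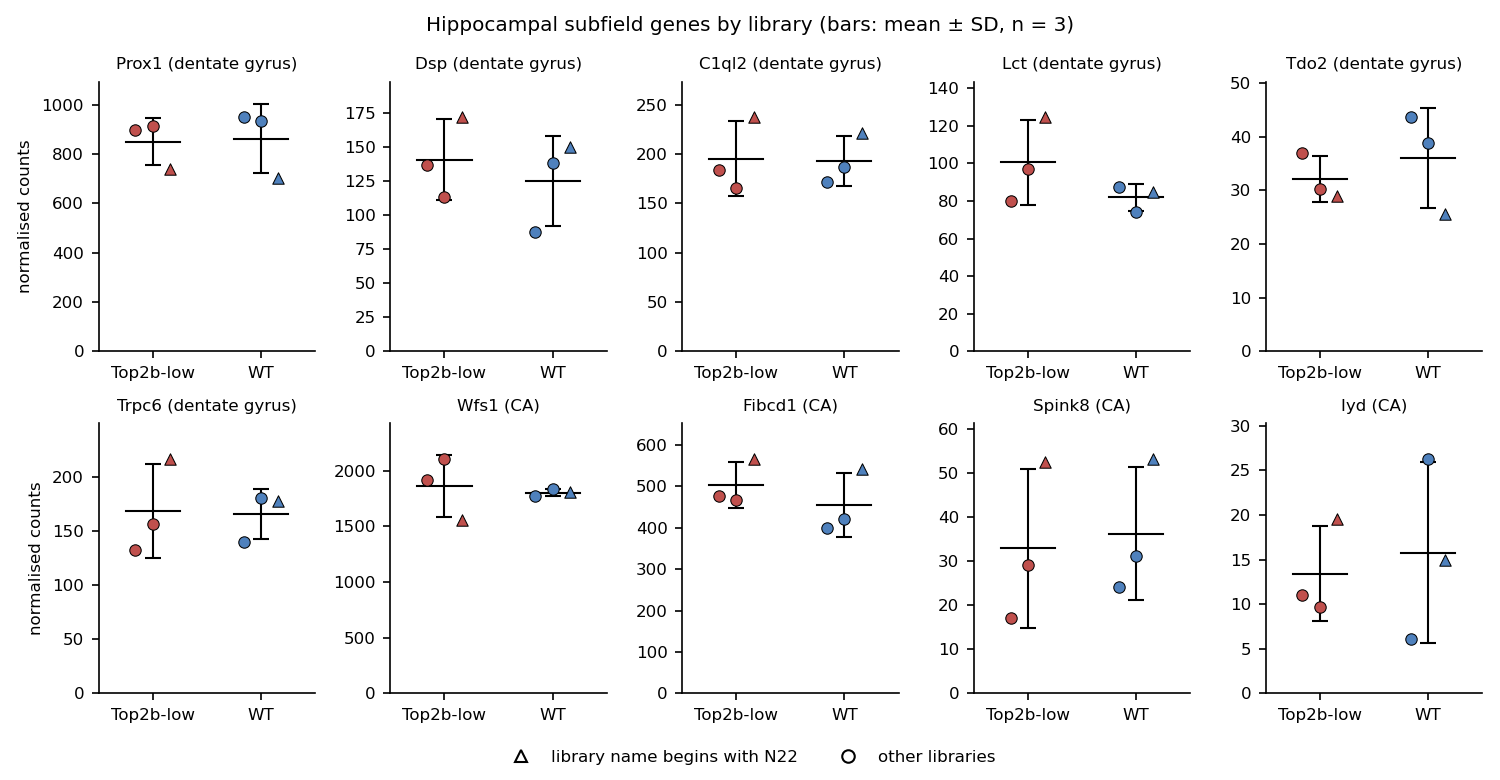
Normalised counts (vertical axes, each from 0) of the 10 genes in the 3 Top2b-low libraries (left in each panel) and the 3 wild-type libraries (right). Points are libraries, triangles those with N22 names, and bars give mean ± SD. The groups overlap in every panel, while the triangles lie above all circles for Dsp, C1ql2, Fibcd1 and Spink8 and below them for Prox1 and Tdo2.

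Prox1 encodes the homeobox transcription factor that specifies dentate granule cells and keeps their identity. It had 898, 914 and 739 normalised counts in Top2b-low replicates 1 to 3, against 951, 935 and 702 in wild-type replicates 1 to 3. The group ranges overlapped almost entirely, and the lowest value of each genotype was that of its N22 library. The log2 fold change between genotypes was -0.01 with a 95% interval of -0.36 to 0.33. C1ql2 encodes a secreted C1q-like protein of mossy fibre synapses, which granule cells form on CA3 neurons. Its values were 183, 165 and 238 normalised counts in Top2b-low mice, against 171, 187 and 221 in wild-type mice. Here the N22 library was the highest of each genotype, and the log2 fold change between genotypes was 0.0085 with a 95% interval of -0.40 to 0.41.

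Promoters are shown for the genes that passed the test between the N22 and the other libraries, described further on, as far as the RefSeq table held them. It covered 9 of the 10 genes (GRCm38.p6, from 250 bases before to 50 after the start of the gene), and Spink8 was not among them. Both sequences below are from chromosome 1, Prox1 from chr1:190170778-190171077 on the minus strand and C1ql2 from chr1:120340332-120340631 on the plus strand. For Prox1 the table has 2 starts, and the first is given. Capitals mark matches, on either strand, to the motifs CAGATG (an E-box of the kind bound by NeuroD factors), CAGCTG (another E-box), TGACGTCA (the cyclic AMP response element) and TATAAA (the TATA box).
Prox1: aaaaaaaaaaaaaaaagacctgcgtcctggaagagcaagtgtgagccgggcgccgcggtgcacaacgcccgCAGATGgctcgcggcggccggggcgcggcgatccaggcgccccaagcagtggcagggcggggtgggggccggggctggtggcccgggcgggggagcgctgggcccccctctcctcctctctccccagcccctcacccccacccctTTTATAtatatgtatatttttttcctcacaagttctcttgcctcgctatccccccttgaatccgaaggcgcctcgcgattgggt
C1ql2: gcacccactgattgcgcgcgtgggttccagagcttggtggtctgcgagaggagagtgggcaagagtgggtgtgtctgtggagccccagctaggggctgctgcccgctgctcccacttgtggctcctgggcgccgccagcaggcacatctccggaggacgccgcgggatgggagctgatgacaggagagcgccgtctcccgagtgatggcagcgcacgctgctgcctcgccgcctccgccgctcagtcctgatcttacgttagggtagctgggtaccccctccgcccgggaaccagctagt
The Prox1 window held 1 match to CAGATG and 1 to TATAAA, while the C1ql2 window held no match to any of the 4 motifs. Of all 32851 windows of this length in the table, 17.2% held CAGATG, 16.3% CAGCTG, 1.79% TGACGTCA and 13.6% TATAAA. Both windows were rich in CpG, with 25 CpG in Prox1 and 23 in C1ql2, against a median of 7 over all windows. The window of the second Prox1 start, not shown, held 14 CpG and no match to the 4 motifs. For the other dentate genes the windows of Dsp, Trpc6, Tdo2 and Lct held 27, 17, 4 and 1 CpG.

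The other dentate genes encode an enzyme of the gut brush border, a desmosomal protein, a liver enzyme and a channel, which granule cells also express. Lct, the gene of lactase, had 80.0, 97.1 and 125 normalised counts in Top2b-low mice, against 87.5, 73.9 and 84.6 in wild-type mice. Its highest value was in the Top2b-low N22 library, and its log2 fold change of 0.27 between genotypes, with a 95% interval of -0.19 to 0.73, was the largest of the 10 in size. It was 0.11 without that library and 0.42 without Top2b-low replicate 1. Dsp, which encodes the desmosomal linker desmoplakin, had 137, 113 and 172 normalised counts in Top2b-low mice, against 87.5, 138 and 150 in wild-type mice. Wild-type replicate 1 was its lowest library, and the genotypes overlapped (log2 fold change 0.18, 95% interval -0.39 to 0.76). Tdo2, the gene of tryptophan 2,3-dioxygenase, had 36.9, 30.3 and 29.0 normalised counts in Top2b-low mice, against 43.7, 38.9 and 25.6 in wild-type mice. Both the highest and the lowest value were wild type. Trpc6, a cation channel opened by diacylglycerol, had 133, 157 and 217 normalised counts in Top2b-low mice, against 140, 180 and 178 in wild-type mice. The Top2b-low libraries held both extremes, and the log2 fold change was 0.0040 with a 95% interval of -0.48 to 0.49.

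Of the CA genes, Wfs1 encodes wolframin, a membrane protein of the endoplasmic reticulum. It had 1915, 2107 and 1558 normalised counts in Top2b-low mice, against 1768, 1836 and 1804 in wild-type mice. The wild-type values lay close together (1803 ± 33.8, SD, n = 3), while the Top2b-low values held both the highest and the lowest of the 6 (1860 ± 279, SD, n = 3). Fibcd1, an endocytic receptor that binds acetylated sugars, had 477, 466 and 567 normalised counts in Top2b-low mice, against 399.6, 422 and 542 in wild-type mice. The N22 library was the highest of each genotype, and among the other 4 libraries both Top2b-low values lay above both wild-type values. The log2 fold change between genotypes was 0.15 over all 6 libraries, with a 95% interval of -0.18 to 0.49, and 0.20 in the 4 libraries outside N22 (limma adjusted p = 0.951).

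Spink8, a member of the Kazal family of serine protease inhibitors, had 17.2, 29.1 and 52.7 normalised counts in Top2b-low mice, against 24.3, 31.3 and 53.3 in wild-type mice. The 2 N22 libraries were nearly equal and stood above the other 4. Iyd, the gene of iodotyrosine deiodinase, which recovers iodide in the thyroid, had 11.1, 9.71 and 19.5 normalised counts in Top2b-low mice, against 6.07, 26.3 and 14.9 in wild-type mice. The values of wild-type replicates 1 and 2 were its lowest and its highest, and the 95% interval of its log2 fold change between genotypes ran from -1.36 to 1.22.

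Fibcd1 is the CA gene whose promoter is shown, for the same reason as above. The window lies at chr2:31845956-31846255 on the minus strand (GRCm38.p6, RefSeq).
Fibcd1: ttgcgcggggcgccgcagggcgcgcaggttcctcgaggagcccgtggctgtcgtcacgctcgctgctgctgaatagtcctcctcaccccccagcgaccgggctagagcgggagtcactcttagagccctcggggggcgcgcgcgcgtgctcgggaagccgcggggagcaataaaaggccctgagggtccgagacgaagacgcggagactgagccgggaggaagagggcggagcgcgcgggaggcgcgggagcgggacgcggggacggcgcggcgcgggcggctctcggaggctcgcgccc
It held no match to the 4 motifs and 46 CpG, the most of the 10 windows of these genes. The window of Wfs1 held 30 CpG and 1 match to CAGATG, and that of Iyd 6 CpG, 1 match to CAGATG and 1 to TATAAA.

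Between the N22 libraries and the other 4, by contrast, 4 of the 10 genes changed. Prox1 fell, and C1ql2, Fibcd1 and Spink8 rose, at a limma adjusted p under 0.05 with genotype in the model. The background was high, since 28.0% of all genes tested passed in that comparison, 11.3% higher and 16.7% lower in the N22 libraries. With quantile normalization the split was 2438 higher and 2377 lower, against 1963 and 2901 as tested. The groups did not overlap for 6 of the 10, with 4 above and 2 below the other libraries, where 49.3% of all genes tested did not overlap, 22.8% higher and 26.5% lower. The labels give no meaning for N22, and the number of reads and the share of cerebellar and hindbrain RNA moved with it. Their part in these differences was not tested.

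Prox1 averaged 720.4 normalised counts in the N22 libraries and 925 ± 23.2 in the other 4 (SD, n = 4). Both N22 values lay well below the other 4, which differed among themselves by a coefficient of variation of 2.50%. This came to a log2 fold change of -0.36 (SE 0.07, limma adjusted p = 0.0042). The log2 fold change was -0.29 among the Top2b-low and -0.43 among the wild-type libraries alone, each of 1 N22 library against 2 others. C1ql2 averaged 229.5 normalised counts in the N22 libraries and 177 ± 10.2 in the other 4 (SD, n = 4). This came to a log2 fold change of 0.38 (SE 0.11, limma adjusted p = 0.0329). Both are granule cell genes, and they moved in opposite directions between the same libraries.

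Fibcd1 averaged 554 normalised counts in the N22 libraries and 441 ± 36.6 in the other 4 (SD, n = 4). Its log2 fold change of 0.33 had an SE of 0.08 and a limma adjusted p of 0.0134. Spink8 averaged 53.0 normalised counts in the N22 libraries and 25.5 ± 6.25 in the other 4 (SD, n = 4). These values rested on few reads, 89 (Top2b-low) and 75 (wild type) in the deeper N22 libraries and 14 to 25 in the other 4. The change of Spink8 was the largest of the 10, a log2 fold change of 1.06 with an SE of 0.28 and a limma adjusted p of 0.0192. It was 1.2 among the Top2b-low and 0.93 among the wild-type libraries. All 4 changes had the same direction in both genotypes, which follows from the N22 libraries not overlapping the others for these genes. It is no further evidence for them.

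The other 6 genes did not pass this test. Dsp had a log2 fold change of 0.46 (adjusted p = 0.0891 by limma) and Trpc6 of 0.37 (adjusted p = 0.0985), with 95% intervals of 0.05 to 0.86 and 0.03 to 0.72. For Tdo2 the value was -0.43, for Lct 0.29, for Iyd 0.52 and for Wfs1 -0.18, with 95% intervals that all included 0. Wfs1 had a log2 fold change of -0.37 among the Top2b-low and of 0.0018 among the wild-type libraries alone, each of 1 N22 library against 2 others. Whether the N22 difference depends on genotype was tested by their interaction, which 0 of the 10 genes passed (adjusted p = 0.997 by limma for each), against 0.0230% of all genes (0.00575% higher and 0.0173% lower). One of the 10 genes, Wfs1, had an unadjusted p under 0.05 for the interaction by limma, where 624 of the 17391 genes tested did. EdgeR and DESeq2 also called 0 of the 10, each with 1 at an unadjusted p under 0.05, where 765 and 225 of all genes were.

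The calls rested on the N22 libraries. Leaving out a replicate 3 leaves 1 N22 library, which the fit assumes to vary like the other libraries. Calls over all genes fell in those fits too, so the loss was not particular to the 10 genes. Without Top2b-low replicate 3, Prox1 was the only one of the 10 called (limma adjusted p = 0.0286). Without wild-type replicate 3, Wfs1 was the only one called (adjusted p = 0.0393 by limma), and Prox1 had an adjusted p of 0.0862. Fibcd1 then had a limma adjusted p of 0.0682 without Top2b-low and 0.189 without wild-type replicate 3, and Spink8 of 0.214 and 0.116. With no filter on low values the adjusted p by limma was 0.0638 for Spink8 and 0.0584 for C1ql2, and without limma's trend 0.0541 and 0.0557. The call of C1ql2 was also lost without Top2b-low replicate 2 (adjusted p = 0.0627 by limma), without wild-type replicate 1 (0.0768) and with DESeq2 (0.0864). Without wild-type replicate 2 Dsp and Trpc6 were called too, 6 in all, where 3952 of the 17391 genes tested were called. As tested with all libraries, 4864 of them were.

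**Figure D2:**
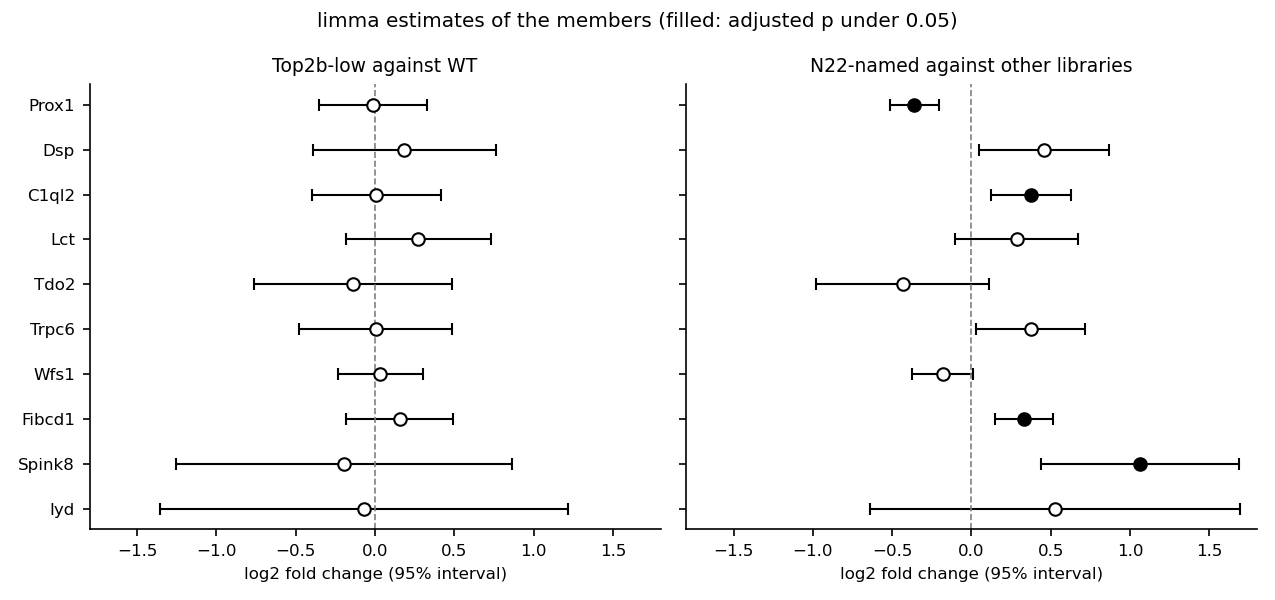
Log2 fold changes (horizontal axes) of the 10 genes with their 95% intervals from limma, for Top2b-low against wild-type libraries (left) and for the N22 against the other libraries (right). Filled points passed an adjusted p of 0.05. All intervals on the left include 0, and on the right Prox1, C1ql2, Fibcd1 and Spink8 are filled, the first of these below 0.

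The other genes of hippocampal cell classes were read from lists of markers, 41 genes in all. Between the genotypes 0 of the 41 were called by limma, with 22 higher and 19 lower in Top2b-low mice and a median log2 fold change of 0.02. For 3 of the 41, or Ntf3, Socs2 and Draxin, the groups did not overlap, near the 5.74% of all genes tested. Ntf3, the gene of neurotrophin 3 and a CA2 marker, had 32.0, 29.1 and 23.1 normalised counts in Top2b-low mice, against 43.7, 36.4 and 36.3 in wild-type mice. Socs2, a suppressor of cytokine signalling, had 349, 365 and 346 normalised counts in Top2b-low mice, against 319, 339.6 and 313 in wild-type mice. Draxin, a secreted axon guidance protein, had 19.7, 23.1 and 19.5 normalised counts in Top2b-low mice, against 17.0, 12.5 and 16.4 in wild-type mice. Each of these 3 had a limma adjusted p of 0.99997.

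Between the N22 and the other libraries 11 of the 41 rose and 8 fell, with a median log2 fold change of 0.08, where 11.3% of all genes tested rose and 16.7% fell. The lists below are small and are to be read against those shares. Of 5 further CA1 genes 3 rose and none fell by limma's test, namely Mpped1 (0.48), the transcription factor gene Pou3f1 (0.36) and the matricellular protein gene Ccn3 (0.33), the values being log2 fold changes. Of 7 CA3 genes 3 rose, Dkk3, a secreted protein related to Wnt inhibitors (0.55), the kainate receptor subunit Grik4 (0.27) and Coch (0.27). Several of these calls were fragile, since of 18 alternative settings Pou3f1, Grik4 and Coch lost the call in 9 each and Ccn3 in 8, while Dkk3 lost it in 0. Of 7 CA2 genes Rgs14, a regulator of G protein signalling (0.58), and Necab2 (0.53) rose and Cacng5 fell (-0.61, and -0.38 with no call without Top2b-low replicate 3). The 9 further dentate genes had 0 that rose, and Ahcyl2 (-0.34) and Maml2 (-0.59) fell.

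Of 3 genes used across the hippocampus, the calcium sensor Hpca (0.83) and the transcription factor gene Neurod6 (0.49) rose, while the repressor gene Zbtb20 fell (-0.40). Zbtb20 lost the call in 5 of 18 settings and was at -0.20 without wild-type replicate 3. Of 4 mossy cell genes Calb2, the gene of calretinin, fell (-1.13, and -0.71 without Top2b-low replicate 3). Of 6 genes of immature granule cells Dcx, the gene of doublecortin, rose (0.46), and Neurod1 (-3.18), Eomes (-3.57) and Sox11 (-0.66) fell. Calb2, Neurod1 and Eomes are used by cells of the cerebellum as well, whose markers stood lower in the same libraries. The part of those cells in these values was not tested.

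**Figure D3:**
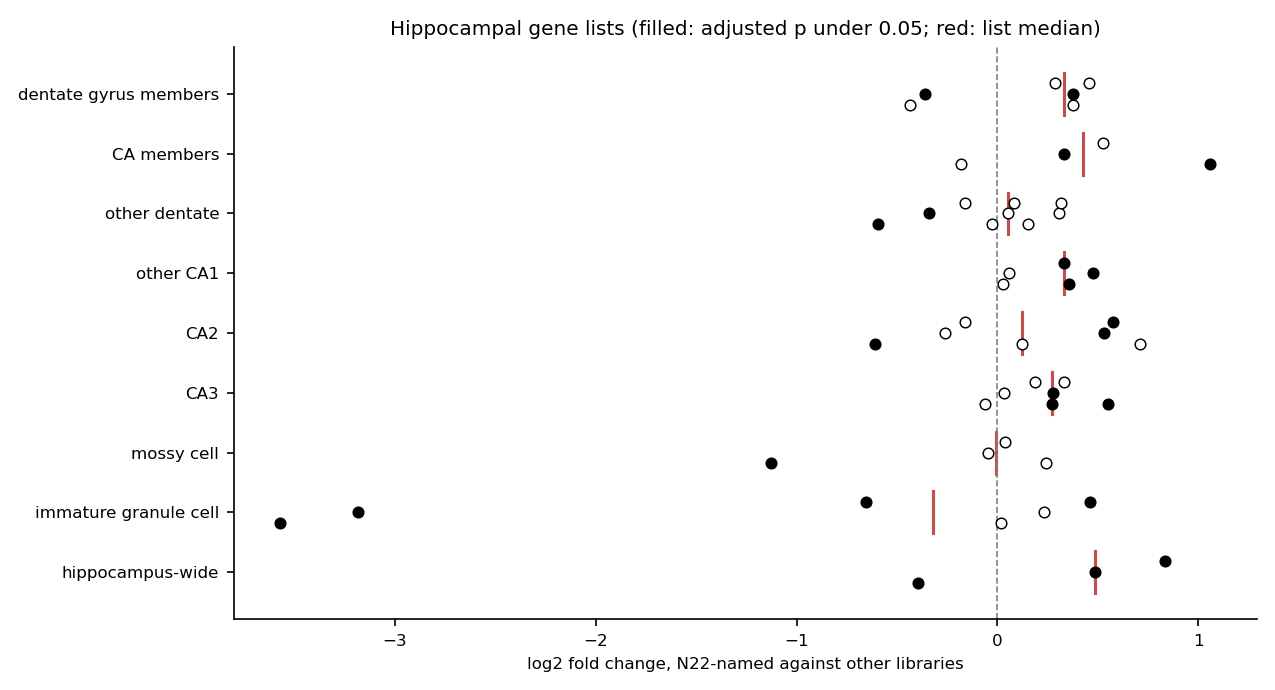
Log2 fold change between the N22 and the other libraries (horizontal axis) for each gene of the hippocampal lists, with 1 point per gene, filled where the limma adjusted p was under 0.05. Red lines are list medians, which were 0.33 for the dentate and 0.43 for the CA genes described above, 0.05 for the further dentate genes, 0.33 for the further CA1 genes, 0.12 for CA2, 0.27 for CA3, -0.0047 for mossy cell, -0.32 for immature granule cell and 0.49 for hippocampus-wide genes.

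Markers of other forebrain regions are given beside these. Of 6 markers of cortical excitatory neurons 3 rose in the N22 libraries and 0 fell, with a median log2 fold change of 0.27. Of 6 striatal markers 4 rose and 0 fell, with a median of 0.34. The medians were 0.33 for the 6 dentate and 0.43 for the 4 CA genes, and no difference between these lists was tested. The dentate median was 0.12 without Top2b-low replicate 3, and the CA median 0.23 without wild-type replicate 1 and 0.66 without wild-type replicate 2. The 5 thalamic markers had a median of 0.14, with 2 that rose and 1 that fell. All 5 Purkinje cell markers fell. In the choroid plexus, oligodendrocyte, mural, lymphatic endothelial and meningeal lists 0 genes rose by limma's test. Those that fell were 2 of 6, 1 of 5, 1 of 6, 1 of 3 and 1 of 6, where 16.7% of all genes tested fell.

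Summed over their lists, the cortical markers came to 6209.6 (Top2b-low) and 5235 (wild type) normalised counts in the N22 libraries and to 4488 to 5465 in the other 4. The 6 meningeal markers, given because Dsp is also expressed in the meninges, came to 859.6 and 1016 in the N22 libraries and to 906 to 1163 in the other 4. The 6 dentate genes summed to 1519.9 (Top2b-low) and 1361 (wild type) in the N22 libraries and to 1468 to 1553 in the other 4, and the 4 CA genes to 2197 (Top2b-low) and 2414.5 (wild type) in the N22 libraries and to 2198.5 to 2612.5 in the other 4. The N22 sum of the CA genes in Top2b-low was just below the range of the other 4, and that of the wild type lay inside it. The most abundant gene of each set, Prox1 and Wfs1, had a negative log2 fold change where most of the others had a positive one.

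**Figure D4:**
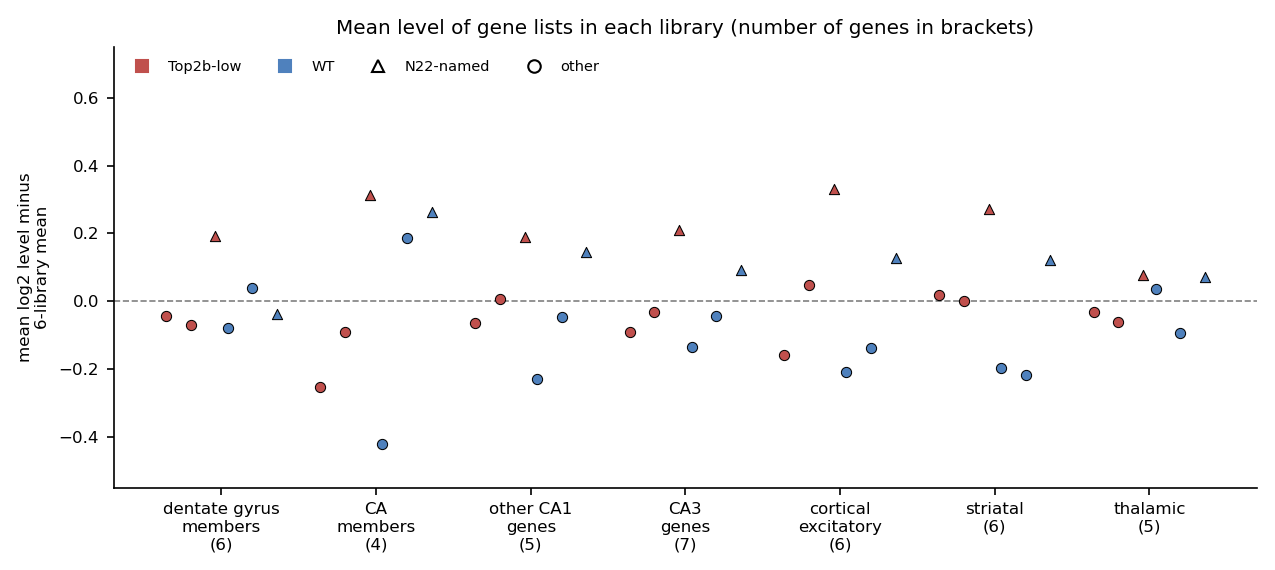
Mean log2 level of each gene list minus its mean over the 6 libraries (vertical axis), with Top2b-low libraries left of wild-type libraries in each list and triangles for N22 names. The N22 libraries are the highest of their genotype in every list shown except the dentate genes of the wild type. There wild-type replicate 3 is at -0.04. Neither N22 library is the highest for the further dentate, mossy cell and immature granule cell genes, which are not shown. For the CA2 genes, also not shown, only the wild-type N22 library is the highest, and for the hippocampus-wide genes both are.

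Between the genotypes these lists showed no called gene by limma. All 6 cortical, all 6 striatal and all 3 hippocampus-wide genes had a higher mean log2 level in Top2b-low mice, with medians of 0.16, 0.22 and 0.20. All 7 cerebellar granule cell, 5 oligodendrocyte and 4 mossy cell genes had a lower one, with medians of -0.14, -0.11 and -0.32. In the 4 libraries outside N22 the medians of these last lists were 0.07, -0.09 and -0.31. In the N22 pair they were -0.34, -0.06 and -0.52, so the cerebellar median changed sign between the 2 sets of libraries. The 4 hindbrain genes tested were lower too (median -0.89). These lists are named because all their genes shared a sign, while the other lists held genes of both signs. None of these genes passed the test. As a mean deviation from the 6-library average the dentate genes stood at 0.03 ± 0.15 in Top2b-low and -0.03 ± 0.06 in wild-type mice (SD, n = 3 each). For the CA genes the values were -0.01 ± 0.29 and 0.01 ± 0.38 (SD, n = 3 each). In both sets the spread within each genotype was larger than the distance between the genotypes. In the 4 libraries outside N22 the median log2 fold change was -0.05 for the dentate and -0.07 for the CA genes, and in the N22 pair, which has 1 library of each genotype, 0.18 and 0.02.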

How the data were processed

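The data are 1 table that the authors deposited, with a signal, the normalised count, of 78298 Ensembl mouse gene identifiers in 6 libraries. RSEM and mm39 are named per the submitters' processing notes, while no version, aligner or annotation is named there. In each library every value was a whole multiple of the smallest value above 0 (100% of values, tolerance 1e-06 reads), so read counts could be recovered from the deposited values. Depth was 16963067 to 35246703 reads per library, and 3 reads equal 1.77 to 3.76 normalised counts. Symbols came from a table that matched 51498 identifiers, and exon lengths from GENCODE vM21, an annotation of another build than mm39, so no coordinates of it are given.

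Sample titles gave the groups and the replicate numbers, and the series text counts mice per genotype. Levels were compared with limma 3.58.1 in R 4.3.3 (two-sided, empirical Bayes, trend on) as log2(normalised count + 1) in the 17391 genes whose mean reached 10 (pseudocount 1), with Benjamini-Hochberg adjustment over all genes tested. On this scale the pseudocount can alter the fold changes of low genes. The genotype model had no covariate, the N22 model included genotype, and another model added their interaction. The recovered reads also went through edgeR 4.0.16 and DESeq2 1.42.0 as alternatives, beside other pseudocounts, filters, scalings and left-out replicates. The fits were tested on simulated counts. The members and lists were chosen with earlier results of these data known. The genes named beside the 10 were, by the rule written with the design, those of each list with the smallest unadjusted p, up to 4 per comparison, those called, and those with the nearest profile. The markers of cells outside the hippocampus and Top2b are described as counts and sums. Replicates are taken as separate mice.

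Replicate numbers 1 to 3 occur in both genotypes. Deviations from the group means correlated at 0.33, 0.35 and 0.68 between libraries of the same number, above 0.1 for each pair. Replicate number was therefore used as a block in alternative fits, but not in the main genotype model. No label states a pairing by number, and replicates 1 and 2 also correlated when crossed (0.37 and 0.24). The correlations therefore cannot show that replicates 1 and 2 were paired by number. With the replicate block limma, edgeR and DESeq2 called 0, 0 and 15 genes between genotypes and none of the 10 described. DESeq2 gave an adjusted p to 15030 genes there, and none to Iyd. A chi-square of the read counts, divided by its degrees of freedom, was 4.17 to 39.3 between libraries of one group. The libraries thus differed by more than counting error, unlike a repeated sequencing of the same library. This cannot tell whether 2 libraries came from the same mouse.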

Additional observations from a re-analysis of the deposited data

Results flagged for a closer look

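For 3 genes the genotype difference went one way in the N22 pair and the other way in the other 4 libraries, with no overlap between the genotypes there. For C1ql2, Trpc6 and Iyd the mean differences also had opposite signs, but the genotypes overlapped outside N22. Wfs1 was lower in the Top2b-low than in the wild-type N22 library (1558 and 1804 normalised counts), while outside N22 both Top2b-low values (1915 and 2107) lay above both wild-type values (1768 and 1836). Its interaction of genotype and N22 name was -0.37 on the log2 scale, with an SE of 0.13, a limma unadjusted p of 0.0219 and an adjusted p of 0.997. Tdo2 went the other way round, with an interaction of 0.47 (limma adjusted p = 0.997), from 25 to 49 reads per library. Prox1 was also higher in the Top2b-low library of the N22 pair and lower outside it, with an interaction of 0.13 (limma adjusted p = 0.997). None of the 3 passed the test of the difference. The share of all genes with this pattern was not determined, so the 3 have no background beside them. The libraries outside N22 are few, so the genotypes can easily be separate there.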

How the results depend on the processing

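Between genotypes 0 of the 10 genes were called under every alternative run, Iyd having no adjusted p by DESeq2 with the replicate block. Over all genes DESeq2 called 14 with an N22 term and 15 with the replicate block, and leaving out single replicates gave 0 to 1 (1 without Top2b-low replicate 1). The block changed no other call. The sign between genotypes turned in the N22 pair for Prox1 (0.074), Tdo2 (0.17), Wfs1 (-0.21) and Iyd (0.37), and in the 4 libraries outside N22 for C1ql2 (-0.039) and Trpc6 (-0.14). Without single replicates the log2 fold change ran from -0.16 to 0.084 for Prox1, -0.054 to 0.33 for Dsp, -0.14 to 0.12 for C1ql2, -0.36 to 0.015 for Tdo2, -0.19 to 0.16 for Trpc6, -0.062 to 0.16 for Wfs1, 0.11 to 0.42 for Lct, 0.066 to 0.29 for Fibcd1, -0.60 to 0.18 for Spink8 and -0.59 to 0.38 for Iyd. Between the N22 and the other libraries the count of called genes among the 10 was 2 with no filter on low values, 2 without limma's trend, 2 in the wild-type libraries alone, 1 in the Top2b-low libraries alone and 1 to 6 without single replicates. Over all genes it was 2181 without the trend, 3210 in the wild-type and 2193 in the Top2b-low libraries alone, and 1711 to 4576 without single replicates. Fits without a replicate 3, or within 1 genotype, have 1 N22 library, which is assumed to vary like the others. Wfs1 turned to 0.0018 in the wild-type libraries, and ran from -0.37 to 0.0018 without single replicates. For the interaction 4 genes were called, 2 with a pseudocount of 5, 1 with edgeR and 23 with DESeq2, none of them among the 10. The cause of these changes was not tested. With a filter at a mean of 50, Tdo2, Spink8 and Iyd were not tested.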

Other observations

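Genes with the most similar profile over the 6 libraries were sought by the root-mean-square distance between centred log2 levels, among 13438 genes. For the mean of the 6 dentate genes the nearest were A330102I10Rik, Zfp143 and BC003965, at distances of 0.02 each, and for the mean of the 4 CA genes Gm12992, Crlf2 and Serpinb8, at 0.08, 0.09 and 0.09. The members themselves lay farther from their own mean, at 0.13 (C1ql2) to 0.30 (Tdo2) for the dentate and 0.20 (Fibcd1) to 0.42 (Iyd) for the CA genes. With 6 libraries and so many genes compared, near profiles of this kind are a description of these libraries only.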
